A study of Mus musculus with 16 samples.

Results

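The genes described here serve sodium and water handling in the principal cell of the collecting duct. They are 10 genes, chosen by symbol: Avpr2, Scnn1a, Scnn1b, Scnn1g, Hsd11b2, Fxyd4, Kcne1, Elf5, Gata3 and Nr3c2. The array measured them with 12 probe sets, out of 45037 non-control probe sets, of which those that name a single gene cover 18193 genes. Kcne1 and Elf5 had 2 probe sets each and every other gene had 1. Of the 12, 11 passed the filter on dim probe sets and were tested, and the Elf5 probe set that did not pass is given as levels alone.

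Kidney RNA came from mouse pups aged 7 days on an Affymetrix mouse genome array, with 1 array per animal. The wild-type group (Aqp11+/+) held 7 pups, 3 males and 4 females, and the knockout group (Aqp11-/-) 9 pups, 5 males and 4 females. All came from crosses of heterozygotes and were labelled as strain C57BL/6J; the null allele was made in 129/SvEvBrd mice and repeatedly back-crossed. The deletion is in the germ line, so it is not limited to principal cells, and the labels name no treatment.

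The principal cell takes up sodium from the urine through the epithelial sodium channel, ENaC, in its apical membrane. Aldosterone acts through the mineralocorticoid receptor to raise ENaC activity, and vasopressin acts through a cAMP-coupled receptor to move the water channel Aqp2 to the membrane and raise its transcription. In the newborn kidney the collecting duct is still maturing, and transcription factors inherited from the ureteric bud take part in setting its cell types.

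The arrays were checked first on the deleted gene. On its brightest probe set, Aqp11 averaged 7.87 ± 0.16 (log2; SD, n = 7) in wild-type kidneys but 2.95 ± 0.33 (SD, n = 9) in knockout kidneys, 7 of which lay at the floor, a fall of at least 30.3-fold. Array brightness, as the trimmed mean of the deposited signal, ran from 111.2 to 236.3 and did not separate the genotypes (exact permutation p = 0.85, two-sided). Of 27377 probe sets tested with limma, 3195 (11.7%) passed a Benjamini-Hochberg adjusted p of 0.05, 6.21% higher and 5.46% lower in knockout; on the deposited scaling alone 573 passed, 65.4% of them higher against 53.2% in the main comparison. The kidney is a mixture: macrophage genes were higher in knockout (19 of 20 tested, none lower), and their summed signal (log2) spanned 11.55 to 12.40 in the wild-type kidneys against 12.96 to 13.68 on knockout arrays. Proximal tubule genes were lower (24 of 28 tested, none higher), with summed log2 signals of 15.82 to 16.17 in wild type and 14.68 to 15.40 in knockout. In bulk RNA, fewer cells of a type and less RNA per cell cannot be told apart, which holds for every value below. The part of either shift in the results was not tested.

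Among the 11 tested probe sets, 2 rose (both of Kcne1), 2 fell (Avpr2 and Scnn1a) and 7 did not pass. These 4 of 11 stand beside 11.7% of all probe sets, and come from 3 of the 10 genes. The median change of the 11 was 0.00 on the log2 scale, against -0.01 over all probe sets tested. The groups did not overlap for 1 of the 11, a Kcne1 probe set, against 3.75% of all probe sets (2.06% higher and 1.69% lower in knockout).

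**Figure D1:**
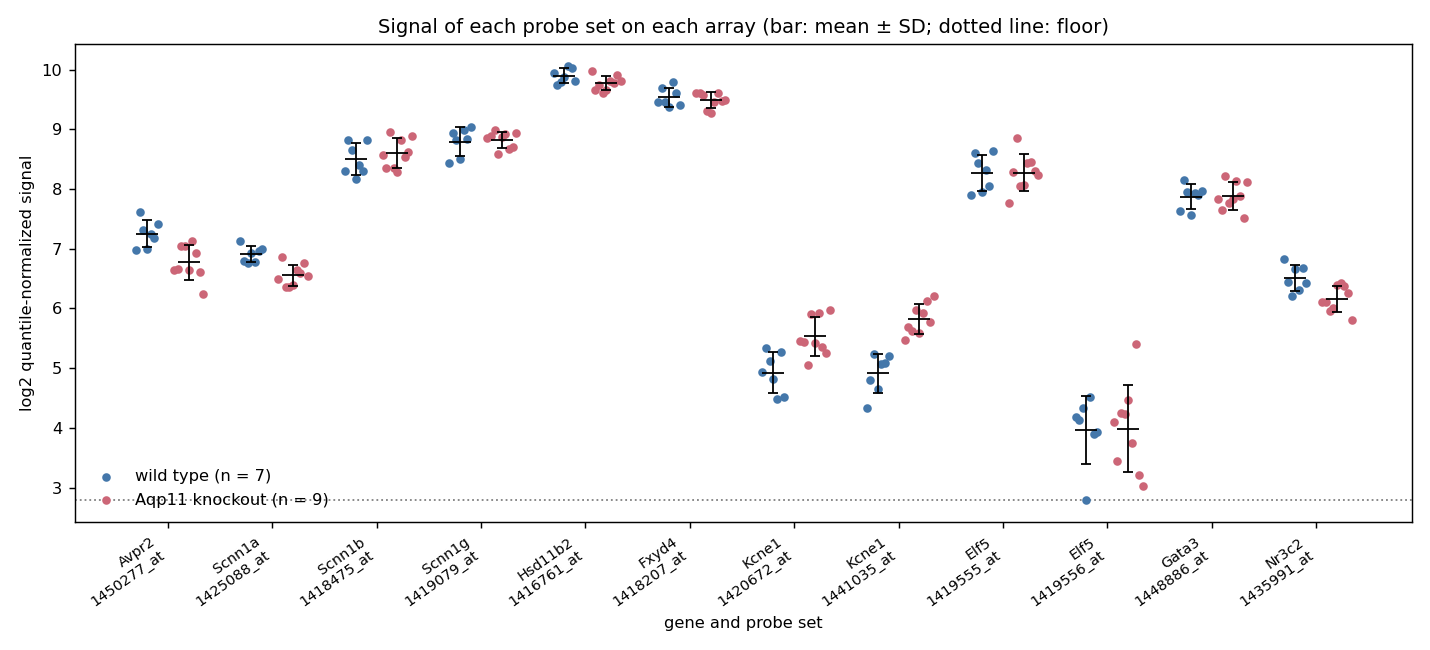
Log2 quantile-normalized signal (vertical axis) of each of the 12 probe sets on each array, with 7 wild-type and 9 knockout arrays side by side, bars at mean ± SD and a dotted line at the floor of 2.79. The knockout points sit lower for Avpr2 and Scnn1a, higher for both Kcne1 probe sets, and among the wild-type points for Scnn1b, Scnn1g, Fxyd4, Elf5 and Gata3. For Nr3c2 all 9 knockout points lie below the wild-type mean and 5 below the lowest wild-type point. For Hsd11b2 these are 7 and 4, and neither gene passed the test.

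The regions before the start of 4 genes are shown because the results turn on 2 pairs: Avpr2 and Aqp2, which changed in opposite directions, and Scnn1b and Scnn1g, which did not pass the test where Scnn1a fell. Each run holds 250 bases before and 50 after the gene start, 5′ to 3′, from the RefSeq table of build GRCm38.p6, at chrX:73891852-73892151 (Avpr2), chr15:99578806-99579105 (Aqp2), chr7:121864788-121865087 (Scnn1b) and chr7:121734229-121734528 (Scnn1g), all on the plus strand. Capitals mark matches on either strand to a GATA motif (AGATAA, also with T as its first base, G as its last, or both), a steroid receptor half-site (AGAACA) or the core of the cAMP response element (TGACG).
Avpr2: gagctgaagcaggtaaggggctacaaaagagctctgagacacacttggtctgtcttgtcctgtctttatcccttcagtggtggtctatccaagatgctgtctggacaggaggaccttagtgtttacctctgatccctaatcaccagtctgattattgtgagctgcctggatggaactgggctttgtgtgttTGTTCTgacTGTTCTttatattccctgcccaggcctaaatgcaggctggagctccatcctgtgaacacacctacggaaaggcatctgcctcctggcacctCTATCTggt
Aqp2: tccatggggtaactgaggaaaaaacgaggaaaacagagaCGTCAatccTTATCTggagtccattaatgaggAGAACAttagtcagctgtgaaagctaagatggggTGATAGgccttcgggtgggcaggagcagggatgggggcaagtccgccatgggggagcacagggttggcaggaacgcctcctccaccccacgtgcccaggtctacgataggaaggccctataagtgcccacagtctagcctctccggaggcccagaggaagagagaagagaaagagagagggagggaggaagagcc
Scnn1b: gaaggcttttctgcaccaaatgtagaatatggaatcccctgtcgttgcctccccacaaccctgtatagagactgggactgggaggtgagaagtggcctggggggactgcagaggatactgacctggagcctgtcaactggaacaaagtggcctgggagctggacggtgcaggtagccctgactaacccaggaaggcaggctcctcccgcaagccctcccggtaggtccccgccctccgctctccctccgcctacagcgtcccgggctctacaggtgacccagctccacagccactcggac
Scnn1g: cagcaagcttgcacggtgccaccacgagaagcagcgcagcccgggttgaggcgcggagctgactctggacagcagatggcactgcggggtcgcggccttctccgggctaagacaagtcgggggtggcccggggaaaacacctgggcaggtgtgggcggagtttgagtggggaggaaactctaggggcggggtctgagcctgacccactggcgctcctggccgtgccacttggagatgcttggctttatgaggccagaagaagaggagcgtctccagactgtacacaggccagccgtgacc
Avpr2 held 2 half-sites, beginning 59 and 50 bases before the gene start, and 1 GATA motif after it. Aqp2 held 2 GATA motifs, 1 half-site and 1 cAMP response core. None of these letters occurred in the Scnn1b and Scnn1g runs. Over all 32851 promoters of this length in the table, 29.8% held the GATA motif, 19% the half-site and 20.8% the cAMP core, so single matches are common. Of the 10 genes, 7 were in the table, with 8 entries: 3 entries held the GATA motif (Avpr2, Elf5 and Gata3), 1 the half-site (Avpr2) and 1 the cAMP core (Elf5). These matches are a description of letters, and no binding was measured here.

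Avpr2 encodes the V2 vasopressin receptor, through which vasopressin raises cAMP in principal cells. Its log2 signal ran from 6.99 to 7.61 in wild type, with a median of 7.25, and from 6.24 to 7.14 in knockout, with a median of 6.66. All 9 knockout arrays lay below the wild-type mean and 6 below the lowest wild-type array, but the groups overlapped. The difference was -0.48 (SE 0.127; 95% confidence interval -0.74 to -0.22), 1.39-fold lower, with a limma adjusted p of 0.0151 and a two-sided exact permutation p of 0.00288. The highest wild-type value, on array 2-1, belongs to 1 of the 2 wild-type arrays with the highest macrophage signal (2-1 and 2-2); without both the difference was -0.39 and missed the threshold (limma adjusted p = 0.0852). It also missed it on the deposited scaling (-0.46, limma adjusted p = 0.513), and among the 8 brighter arrays (-0.48, limma adjusted p = 0.0997) and the 8 dimmer arrays (-0.49, limma adjusted p = 0.184) taken alone. Males (limma adjusted p = 0.343) and females (0.0646) alone missed it too. The call was kept in 29 of 35 alternatives, median centring among them (-0.48, limma adjusted p = 0.0287).

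Aqp2, the vasopressin-regulated water channel that lies downstream of this receptor, went the other way. Its signal had a median of 10.13 in wild type (9.58 to 10.83) and 11.09 in knockout (10.75 to 11.43), and 7 knockout arrays lay above the highest wild-type array. The mean rose by 0.90, 1.87-fold (limma adjusted p = 0.000102). Within an array, the Avpr2 signal less the Aqp2 signal averaged -2.90 ± 0.31 on the wild-type arrays (SD, n = 7) against -4.28 ± 0.38 on the knockout arrays (SD, n = 9), and no array of one genotype fell in the range of the other. The change of -1.38 is given without a test, since the pair was chosen after the values were seen. It was -1.49 in males, -1.27 in females, -1.35 among brighter arrays and -1.38 among dimmer arrays.

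The 3 ENaC subunits did not change alike. Scnn1a encodes the alpha subunit, which the channel needs to conduct and which aldosterone is known to induce. Its log2 signal ran from 6.76 to 7.12 in wild type, median 6.94, and from 6.36 to 6.86 in knockout, median 6.54. All 9 knockout arrays lay below the wild-type mean and 8 below the lowest wild-type array; the exception was knockout 2-3. The difference was -0.35 (SE 0.0938; 95% confidence interval -0.55 to -0.16), 1.28-fold lower, with a limma adjusted p of 0.0162. It was -0.33 on the deposited scaling (limma adjusted p = 0.905), -0.38 among brighter arrays (limma adjusted p = 0.145) and -0.33 among dimmer arrays (limma adjusted p = 0.206). In these the direction was kept and the call was not, as in males (0.138) and females (0.329) alone. The call was kept in 30 of 35 alternatives, median centring among them (-0.35, limma adjusted p = 0.0202).

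Scnn1b and Scnn1g encode the beta and gamma subunits, which bring the channel to the cell surface. The Scnn1b signal ran from 8.16 to 8.83 in wild type, median 8.41, and from 8.29 to 8.96 in knockout, median 8.58. The Scnn1g signal ran from 8.43 to 9.04 in wild type, median 8.84, and from 8.59 to 8.99 in knockout, median 8.87. The groups overlapped almost wholly for both genes. The difference for Scnn1b was 0.10 (95% confidence interval -0.15 to 0.35; limma adjusted p = 0.682). The difference for Scnn1g was 0.03 (95% confidence interval -0.16 to 0.22; limma adjusted p = 0.879), so a fall of the size seen for Scnn1a lies outside both intervals. Scnn1b and Scnn1g lie next to each other on chromosome 7, which also carries Aqp11, with 440 and 439 protein-coding genes between them and it.

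The difference between subunits was also examined within each array, among 6 pairs of genes compared in this way and chosen after the values were seen. The p-values of these pairs are therefore a description and lend the difference no support. The Scnn1a signal less that of Scnn1b was lower in knockout by 0.45 (-0.45; exact permutation p = 0.0173, adjusted 0.0346 over 6 pairs, two-sided). The Scnn1a signal less that of Scnn1g was lower by 0.39 (-0.39; exact permutation p = 0.0111, adjusted 0.0333). The Scnn1b signal less that of Scnn1g moved by 0.07 (exact permutation p = 0.507, adjusted 0.608). A factor applied to a whole array cancels in such a difference, so the scaling alternatives are no check of it. Some single arrays carried weight. Without any one of wild-type 1-1, 3-1 and 4-2 and knockout 1-2, 2-4, 3-4 and 5-2, both comparisons missed 0.05. Their adjusted exact p-values then ran from 0.0513 to 0.0803. The Scnn1a less Scnn1b shift was -0.10 in females and -0.83 in males, and the difference between them was not tested.

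**Figure D2:**
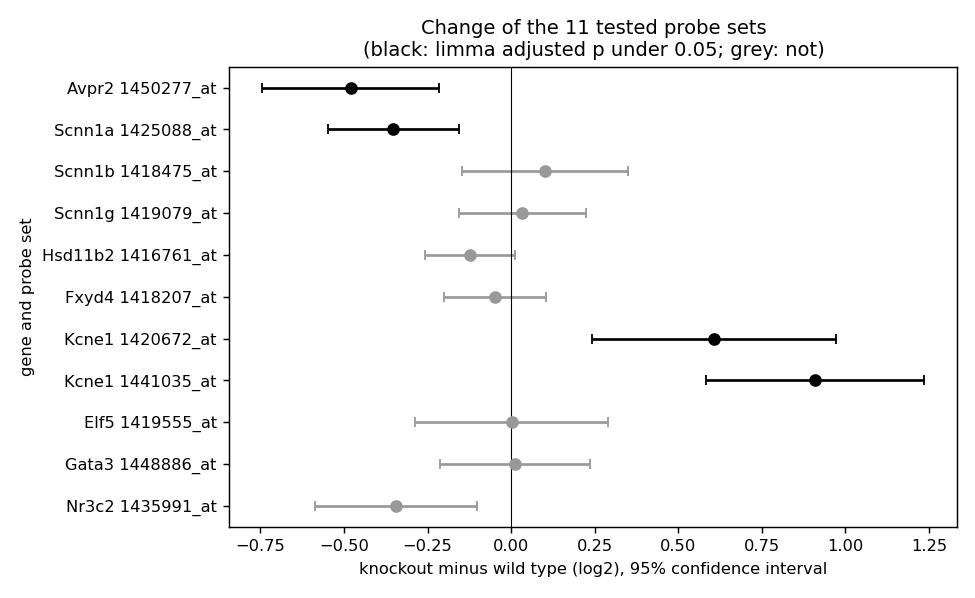
Difference in log2 signal, knockout minus wild type, for the 11 tested probe sets (horizontal axis), with points at the estimate and bars at the 95% confidence interval. Black marks the 4 probe sets with a limma adjusted p under 0.05: Avpr2 (-0.48), Scnn1a (-0.35) and Kcne1 (0.61 and 0.91).

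Nr3c2 encodes the mineralocorticoid receptor, and Hsd11b2 the enzyme that inactivates glucocorticoids so that aldosterone can occupy that receptor. The Nr3c2 signal ran from 6.22 to 6.82 in wild type, median 6.44, and from 5.80 to 6.43 in knockout, median 6.12. All 9 knockout arrays lay below the wild-type mean and 5 below the lowest wild-type array. The difference of -0.34 (SE 0.116; 95% confidence interval -0.59 to -0.10) did not pass over all probe sets (limma adjusted p = 0.0617, with a two-sided exact permutation p of 0.0076). It passed with 1 probe set per gene (limma adjusted p = 0.0456) but not with a filter at the 60th percentile (limma adjusted p = 0.059). It also passed without wild-type 2-2 (-0.39, limma adjusted p = 0.0415), knockout 3-4 (-0.38, 0.0441) or both wild-type 2-1 and 2-2 (-0.41, 0.0491).

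Hsd11b2 differed less. Its signal ran from 9.75 to 10.07 in wild type, median 9.87, and from 9.62 to 9.98 in knockout, median 9.78. The groups overlapped, with 7 of 9 knockout arrays below the wild-type mean, and the difference was -0.12 (95% confidence interval -0.26 to 0.01; limma adjusted p = 0.268). The Nr3c2 signal less the Hsd11b2 signal within an array moved by -0.22 (exact permutation p = 0.0801, adjusted 0.12, two-sided), and without wild-type 4-1 by -0.28 (adjusted exact p = 0.0405). This pair too was chosen after the values were seen, so its p-values are a description.

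Kcne1 and Fxyd4 encode small single-pass membrane proteins that modify other transporters. Kcne1 is the accessory subunit of a voltage-gated potassium channel and is also known from the proximal tubule, and Fxyd4 raises the sodium affinity of the sodium pump in the collecting duct. Kcne1 was the member with the clearest rise. On its probe set 1441035_at the signal ran from 4.33 to 5.24 in wild type, median 5.07, and from 5.48 to 6.21 in knockout, median 5.78. Every knockout array lay above every wild-type array. The difference was 0.91 (SE 0.157; 95% confidence interval 0.58 to 1.24), 1.88-fold, with a limma adjusted p of 0.000415, and it missed the threshold in 1 alternative, females alone (0.73, limma adjusted p = 0.0991).

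The other Kcne1 probe set, 1420672_at, gave a smaller rise with overlap. It ran from 4.49 to 5.33 in wild type, median 4.94, and from 5.06 to 5.97 in knockout, median 5.43, with 7 of 9 knockout arrays above the highest wild-type array. The difference was 0.61 (SE 0.175; 95% confidence interval 0.24 to 0.97), 1.52-fold (limma adjusted p = 0.0262). The call was lost without wild-type 3-1 (0.59, limma adjusted p = 0.0523), 4-1 (0.54, 0.0633) or 5-1 (0.54, 0.0548). It was also lost on the deposited scaling (limma adjusted p = 0.425) and in males (0.116), females (0.35), brighter (0.149) and dimmer (0.185) arrays alone, with the rise between 0.48 and 0.78. Both probe sets were dim: in wild type they passed the brightness filter on 5 of 7 arrays (1420672_at) and 6 of 7 (1441035_at), and in knockout on 9 of 9. While Kcne1 rose, 24 of the 28 proximal tubule genes fell. Less the Aqp2 signal of the same array, the mean Kcne1 signal moved by 0.01 on 1441035_at and by -0.30 on 1420672_at, given without a test. Within knockout, 1441035_at gave a correlation of 0.83 with Slc34a1 of the proximal tubule and -0.10 with Aqp2 (1420672_at, 0.57 and -0.60). Within wild type these were -0.27 and 0.455 (1420672_at, -0.69 and -0.25). The part of either cell type in the Kcne1 rise was not tested.

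Fxyd4 ran from 9.37 to 9.79 in wild type, median 9.46, and from 9.27 to 9.61 in knockout, median 9.49. The groups overlapped and the difference was -0.05 (95% confidence interval -0.20 to 0.10; limma adjusted p = 0.765).

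Elf5 and Gata3 encode transcription factors of the ureteric lineage, Elf5 a principal cell factor of the ETS family and Gata3 a zinc-finger factor needed for growth of the ureteric bud. On the tested Elf5 probe set the mean was 8.27 ± 0.31 in wild type (SD, n = 7) and 8.27 ± 0.31 in knockout (SD, n = 9). The difference was 0.00 (95% confidence interval -0.29 to 0.29; limma adjusted p = 0.995). The other Elf5 probe set, 1419556_at, passed the brightness filter on no wild-type array and on 1 knockout array, with means of 3.97 ± 0.57 (SD, n = 7) and 3.99 ± 0.73 (SD, n = 9). Gata3 ran from 7.56 to 8.16 in wild type, median 7.94, and from 7.52 to 8.21 in knockout, median 7.84. Its difference was 0.01 (95% confidence interval -0.21 to 0.24; limma adjusted p = 0.965), with the groups overlapping on both sides. Other cells of the kidney that can carry Gata3 were measured beside it: of 13 mesangial and stromal genes tested 4 rose and 1 fell, with summed log2 signals of 14.64 to 14.76 in wild type and 14.84 to 14.97 in knockout. Of 11 lymphocyte genes on the array 7 were too dim to test, and none of the other 4 passed, with summed signals of 7.18 to 7.64 and 7.25 to 8.04. Their part in the Gata3 value was not tested.

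The effect of genotype was compared between the sexes. No probe set of 27377 showed an interaction of sex and genotype past an adjusted p of 0.05 with limma, and 2790 (10.2%) had an unadjusted p under 0.05. Among the 11 probe sets, 4 were under that unadjusted level (36.4%), and their limma adjusted p was 0.488 for each. They were Scnn1b, with a knockout difference of 0.43 in males and -0.20 in females, Scnn1g (0.24 and -0.15), Elf5 (0.32 and -0.29) and Gata3 (0.26 and -0.22). In each of these genes the 3 wild-type males had the lowest mean of the 4 sex and genotype groups. Their interactions ran from 0.40 (Scnn1g) to 0.63 (Scnn1b). In simulated data the interaction test recovered 4.55% of interactions of 0.5 log2 and 40.3% of those of 1. An interaction of the members' size would thus mostly be missed. For the 3 genes that passed the genotype test the sexes shared a direction, which passing a test over both sexes makes likely beforehand. Avpr2 differed by -0.34 in males and -0.57 in females, Scnn1a by -0.41 and -0.30, and Kcne1 (1441035_at) by 1.14 and 0.73.

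**Figure D3:**
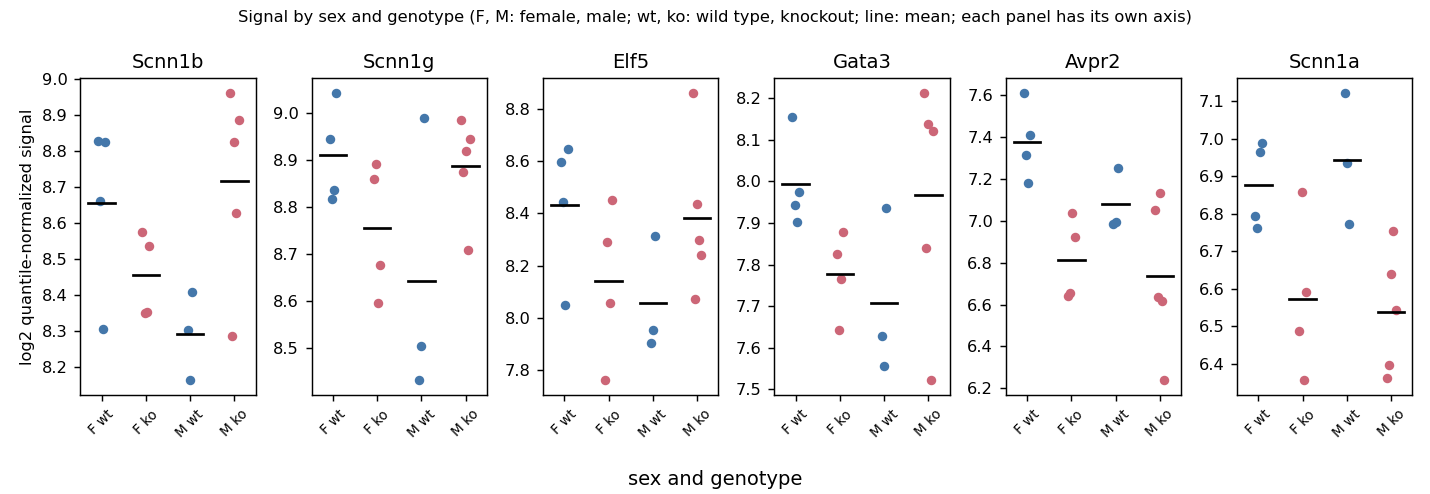
Log2 signal (vertical axis, its own scale in each panel) of 6 genes by sex and genotype, with 1 point per array and a line at the mean of each group (F and M, female and male; wt and ko, wild type and knockout). For Scnn1b, Scnn1g, Elf5 and Gata3 the knockout mean is above wild type in males and below it in females, and for Avpr2 and Scnn1a it is below in both.

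Some of these genes varied together between animals of one genotype. Each array's deviation from the mean of its own genotype was correlated between all 55 pairs of the 11 tested probe sets, over 16 arrays. Scnn1b and Gata3 gave r = 0.77 and rho = 0.78 (permutation p adjusted over 55 pairs 0.0411 and 0.0272), and r = 0.67 without the 2 arrays farthest from the Scnn1b median. Scnn1g and Gata3 gave r = 0.72 and rho = 0.76 (adjusted permutation p = 0.0411 and 0.0272; r = 0.61 without the 2 farthest arrays). Scnn1b and Elf5 gave r = 0.75 and rho = 0.71 (adjusted permutation p = 0.0411 and 0.0591; r = 0.64 without them). Within wild type and within knockout, r was 0.83 and 0.73 for Scnn1b and Gata3, and 0.89 and 0.615 for Scnn1g and Gata3. For Scnn1b and Elf5 it was 0.96 and 0.58. No other pair passed by either measure. The beta and gamma subunits themselves gave r = 0.63 (adjusted permutation p = 0.151). All pairs share the arrays and their RNA, so a correlation of this kind also takes in whatever differs between samples as a whole. Sex was not taken out, and wild-type males 1-1 and 3-1 were low for Scnn1b, Scnn1g, Elf5 and Gata3. These correlations and the pattern by sex are thus not separate results.

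Scnn1a and Nr3c2 ran against these genes, with none of the pairs past the adjusted threshold. Scnn1a gave r = -0.19 with Scnn1b, -0.26 with Scnn1g and -0.52 with Gata3, and Nr3c2 gave -0.47, -0.49 and -0.41. Within knockout alone these were weaker, -0.08, 0.01 and -0.475 for Scnn1a and -0.34, -0.22 and -0.235 for Nr3c2. With each other Scnn1a and Nr3c2 gave 0.47 (permutation p adjusted over 55 pairs 0.343). The 2 Kcne1 probe sets gave r = 0.22 with each other. Knockout 2-4 held the highest knockout value for Scnn1b, Scnn1g, Elf5 and Gata3, and wild-type 1-1 the lowest wild-type value for Scnn1g and Elf5 and the highest for Scnn1a and Nr3c2. Knockout 5-2 held the highest knockout value of both Kcne1 probe sets and the lowest of Avpr2 and Nr3c2. As a description, Scnn1b deviations also followed those of Aqp3 (r = 0.80) and Aqp2 (r = 0.71), the water channels of the same cell, and ran against Umod of the thick ascending limb (r = -0.74). Other genes followed Scnn1b more closely, such as Sh3glb1 (r = 0.94). The share of all genes with correlations of this size was not counted.

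**Figure D4:**
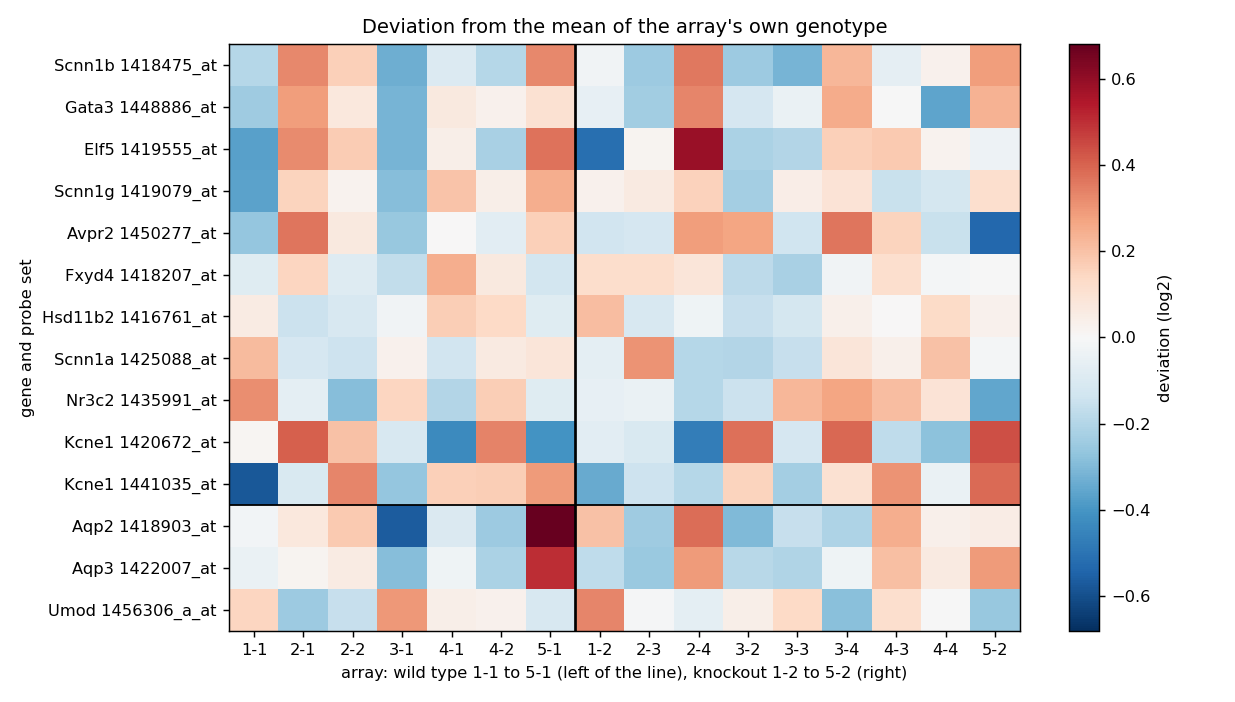
Deviation of each array (columns, wild type left of the line and knockout right) from the mean of its own genotype, in log2, for the 11 tested probe sets and 3 other genes (rows). Scnn1b, Gata3, Elf5 and Scnn1g are high together on knockout 2-4 and wild-type 2-1 and low together on wild-type 1-1 and 3-1.

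The genes outside the members whose deviations were most like those of each probe set were taken from 12489 genes over the same 16 arrays. For Avpr2 they were Tm4sf1 (r = 0.86), Ppme1 (0.82) and Smad2 (0.81). For Scnn1a they were Pkmyt1 (0.81), Gm1976 (0.79) and Carhsp1 (0.74), and for Scnn1b Sh3glb1 (0.94), Gnb2 (0.93) and Phf12 (0.93). Rin3 (0.91), Acbd3 (0.86) and Aplp1 (0.85) followed Scnn1g. Tgfb1i1 (0.94), Sub1 (0.94) and Kctd15 (0.93) followed Elf5, and Zfp961, Lrrc20 and Map7d1 (0.87, 0.87 and 0.85) followed Gata3. Hsd11b2 was followed by Lad1 (0.85), Asb6 (0.82) and the potassium channel gene Kcnq1 (0.82), Fxyd4 by Magi1, Robo4 and Tmem165 (0.81, 0.80 and 0.79), and Nr3c2 by Mgam, 2810013P06Rik and Ppic (0.78, 0.74 and 0.74). For Kcne1 they were Hoxa5, Shld1 and Pja1 (0.84, 0.83 and 0.81) on 1441035_at and Tmem79, Tmem131l and Zbtb26 (0.81, 0.79 and 0.75) on 1420672_at, with no gene in common. Being the highest of 12489 values, these correlations carry no test.

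The wider pathways were read from lists that leave the members out, with each gene at its brightest probe set. By that choice 15.7% of 12499 genes passed limma's adjusted threshold, 8.44% higher and 7.3% lower. Some genes stand in several lists and count in each, so the lists are not separate. Examples are Aqp2 (vasopressin and collecting duct), Wnk1 (aldosterone and distal) and Rhcg (collecting duct and intercalated). Of 33 tested genes of vasopressin signalling and water transport, 3 rose and 1 fell (median change -0.02). Besides Aqp2 the rises were Edn1, the endothelin that acts on the collecting duct against vasopressin (0.87, limma adjusted p = 1.66e-05), and Ptger4, a prostaglandin E receptor coupled to cAMP (0.60, limma adjusted p = 5.85e-05; 0.54 and 0.0714 on its other probe set). Ednrb, an endothelin receptor, fell by 0.32 (limma adjusted p = 0.00302). Among the 29 that did not pass, the G protein gene Gnas differed by 0.04, the adenylyl cyclase gene Adcy6 by -0.16, the protein kinase A gene Prkaca by -0.02 and the water channel gene Aqp3 by 0.25. Without a single array the count of rises ran from 3 to 6, the latter without wild-type array 5-1, and on the deposited scaling 2 rose and 0 fell.

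Of 42 tested genes of the aldosterone response and ENaC regulation, 5 rose and 9 fell (median change -0.02). The falls included Klk1, tissue kallikrein (-1.05, limma adjusted p = 1.24e-05), Prss8, the prostasin that cleaves ENaC (-0.33, limma adjusted p = 0.000292), and the protease gene Tmprss2 (-0.27, limma adjusted p = 0.00349). Furin, another protease that cleaves ENaC, differed by 0.47 and did not pass (limma adjusted p = 0.0908), nor did St14 (0.12) or Plau (-0.41). Klk1 belongs to a family of near-identical genes, and 2 of its 3 other probe sets did not pass (-0.06 and -0.24). The kinase Wnk1 (-0.24), the potassium channel Kcnj16 (-0.40), the sodium pump subunit Fxyd2 (-0.23), Mlxipl (-0.54), Ndrg2 (-0.27) and Tsc22d3 (-0.28) fell as well. Fxyd5 (0.58), Cyb5r1 (0.58), Sfn (0.87), Cnksr3 (0.22) and Fkbp5 (0.34) rose. Not every probe set of these genes passed: 1 other of Wnk1, 1 of Fxyd2, both of Tsc22d3 and all 3 of Tmprss2 did not. The size of the Fxyd2 fall differed between its probe sets. Others that passed gave -0.31 (limma adjusted p = 0.000984) and -1.25 (limma adjusted p = 0.000105). The kinase Sgk1, the classical early target of aldosterone, differed by -0.07 and the ubiquitin ligase Nedd4l, which removes ENaC from the membrane, by -0.07, and neither passed. On the deposited scaling the counts were 1 higher and 1 lower.

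The cell types that share the duct did not all move one way. Of 41 tested genes of collecting duct and ureteric lineage, 10 rose and 7 fell (median change -0.03). The rises with the smallest p were those of epithelial genes: Cldn4, a tight junction claudin (1.09, limma adjusted p = 8.78e-08), the keratins Krt18 (0.57) and Krt19 (0.88), and Elf3, an ETS factor of epithelia (0.54). The 7 genes that fell are not named here, and the lowest change in the list was -0.62. Of 23 intercalated cell genes, none rose and 11 fell (median -0.40), among them the anion exchanger Slc4a1 (-0.88), Oxgr1 (-0.63), Car12 (-0.42) and the proton pump subunit Atp6v1b1 (-0.40). Their summed log2 signal was 13.49 to 13.63 in wild type and 13.07 to 13.41 in knockout. Of 19 genes marking the thick ascending limb or the distal tubule, which also carry some of the members, 1 rose and 7 fell (median -0.16), Egf with the smallest p (-1.91). Endothelial genes fell in 5 of 15 and podocyte genes in 4 of 10, with none higher. On the deposited scaling the falls were 4 of the intercalated genes, 2 of the distal genes and 0 of the endothelial and podocyte genes, and the collecting duct list held 3 rises and 1 fall. Leaving out 1 array took the falls of the collecting duct list to between 4 and 8, and it was 4 when wild type 1-1, wild type 3-1 or knockout 3-4 was dropped. Beside Avpr2 and Scnn1a, the summed signals of the intercalated and proximal lists were lower in knockout without overlap. So were those of the endothelial list (13.11 to 13.34 in wild type, 12.84 to 13.06 in knockout). Those of the distal list overlapped (14.40 to 14.66 in wild type, 14.31 to 14.50 in knockout), as did those of the podocyte list and of the collecting duct list. The part of cell composition in the fall of Avpr2 or of Scnn1a was not tested.

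**Figure D5:**
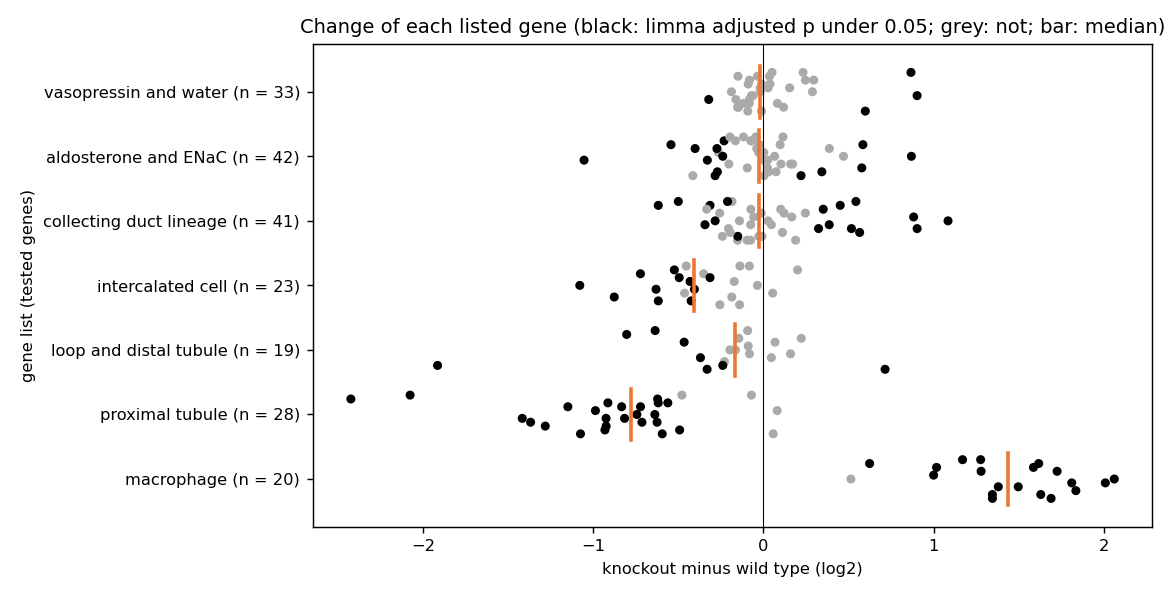
Change of each tested gene, knockout minus wild type in log2 (horizontal axis), by gene list (rows), in black where the limma adjusted p was under 0.05 and grey where not, with a bar at the median. The medians of the vasopressin, aldosterone and collecting duct lists lie near 0 (-0.02, -0.02 and -0.03), those of the intercalated and proximal lists below it (-0.40 and -0.78) and that of the macrophage list above it (1.44).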

How the data were processed

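The table the authors deposited holds 1 signal intensity per probe set and array, linear and made with GCOS 1.3 per the submitters' processing notes. Array-to-array scaling was not given in the sources used here. Since 2% trimmed means spanned a 2.12-fold range, intensities were quantile normalized, raised to the 20th percentile where lower (log2 2.79) and put on the log2 scale. The floor understates changes of dim genes. Names come from the platform's annotation table, where 34958 name 1 gene, 932 several and 9211 are not listed, with symbols updated through RefSeq. The test took probe sets that exceeded the 40th percentile of the array on 7 or more of 16 arrays.

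Genotype was tested with limma 3.58.1 in R 4.3.3 (lmFit, eBayes with a variance trend), genotype the only term, adjusted over all 27377 probe sets. Single measures used exact permutation, and correlations 100000 permutations within genotype. The fit was tested on simulated data. Members and lists were chosen with earlier results of these data known. Named list genes are up to 4 with the smallest p, plus any further passing gene of the vasopressin and aldosterone lists. Genes set beside them that did not pass (Gnas, Adcy6, Prkaca, Aqp3, Furin, St14, Plau, Sgk1, Nedd4l, Umod) were chosen after their values were seen. So was Slc34a1. Promoter letters came from RefSeq. The labels tie no array to a litter, so some pups of a group may share parents.

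Alternatives were other scalings, floors, filters, variance models and terms, 1 probe set per gene, each sex, the brighter and dimmer arrays (parted at the widest gap in trimmed mean), and each array left out. Leaving out wild-type 2-1 and 2-2 and all alternatives of the within-array pairs and lists were added after seeing the data. Figures were drawn with matplotlib 3.10.9.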

Additional observations from a re-analysis of the deposited data

How the results depend on the processing

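The count of probe sets that rose (2) was 1 on the deposited scaling, with 1 brightest probe set per gene, in males, and in brighter or dimmer arrays alone, and 0 with a filter at the 60th percentile, which removes both Kcne1 probe sets, and in females. The count that fell (2) was 0 on the deposited scaling and in males, females, brighter and dimmer arrays alone. Without 1 array the counts ran from 1 to 2 and from 2 to 3. Of all probe sets, 573 passed on the deposited scaling, 1838 in males, 767 in females, 1731 in brighter and 1461 in dimmer arrays, and 2568 to 3193 without 1 array; the sex and brightness subsets hold fewer arrays, and the cause on the deposited scaling was not tested.

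The first sample number shared by arrays of both genotypes did not meet the check for pairing, since not every pair correlated over 0.1: over 13 such pairs the median correlation of deviations was 0.04 (-0.14 to 0.29), against -0.0022 over 50 pairs of other numbers. Within a genotype the median was -0.0694 over 7 pairs with the same number and -0.164 over 50 with other numbers. A check that every pair must meet is strict, so missing it does not show that the numbers carry no pairing. With it as a replicate block 3919 probe sets passed in all (3779 with sex as a term) against 3195 without it. Of the members' probe sets 1 rose, also with sex as a term, because Kcne1 1420672_at missed the threshold (0.57, limma adjusted p = 0.057; 0.58 and 0.0546 with sex), and Nr3c2 passed (-0.38, 0.0296; with sex -0.38, 0.0376).

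The near-zero differences changed sign. In females Scnn1b was -0.20, Scnn1g -0.15, Elf5 -0.29 and Gata3 -0.22. In brighter arrays Scnn1b was -0.10, Elf5 -0.18 and Gata3 -0.0523, and in dimmer arrays Scnn1g was -0.11. With brightness as a block Elf5 was -0.0335 and Gata3 -0.009, and with array weights Gata3 was -0.0109. Without 1 array Scnn1g ran from -0.0273 to 0.0745, Elf5 from -0.0711 to 0.0664 and Gata3 from -0.0402 to 0.0596. Of within-array pairs, Kcne1 less Aqp2 was -0.0095 in males and -0.0775 in dimmer arrays (-0.0879 to 0.0774 without 1 array), and Scnn1b less Scnn1g -0.0458 in females and -0.23 in brighter arrays. No alternative turned the sign of Avpr2, Scnn1a, Kcne1, Nr3c2, Hsd11b2 or Fxyd4. No alternative was left out for time.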
